A study of Mus musculus with 58 samples.

Results

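The genes described here are 10 genes of perineuronal nets and brain chondroitin sulfate proteoglycans, Acan, Bcan, Ncan, Vcan, Hapln1, Cspg4, Cspg5, Ptprz1, Tnc and Tnr. They were found by their symbols in a count table of 15171 genes, and all 10 were present. RNA-seq was performed on hippocampal and cortical tissue at the injury site, frozen together, from 58 mice killed 14 days after surgery at 3 months of age. All mice were on the C57BL/6 background and carried human APOE3 or APOE4 in place of both copies of the mouse gene (targeted replacement), so no group carried mouse Apoe. Abca1+/+ mice had both copies of Abca1, the transporter that loads cholesterol onto apolipoproteins, and Abca1+/- mice lacked 1 copy in every cell. TBI mice received a controlled cortical impact through a craniotomy, and sham mice received the craniotomy and anesthesia without impact. There were 8 E3/Abca1+/+ sham and 8 TBI mice, 7 E3/Abca1+/- sham and 6 TBI mice, 7 E4/Abca1+/+ sham and 7 TBI mice, and 7 E4/Abca1+/- sham and 8 TBI mice, with males and females in every group. The comparisons address how injury changes the transcripts of this matrix and whether APOE isoform or Abca1 copy number changes that response.

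Perineuronal nets are lattices of extracellular matrix around the cell body and proximal dendrites of neurons, most densely around fast-spiking parvalbumin interneurons. Lecticans (aggrecan, brevican, neurocan and versican) bind the hyaluronan backbone through link proteins and are cross-linked by tenascin-R, and their chondroitin sulfate chains restrict plasticity and axon growth. After injury, astrocytes and oligodendrocyte precursor cells surround the lesion, and the proteoglycans and tenascin-C that such cells make are part of the matrix of the glial scar.

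Libraries held 4421308 to 37877346 counts, and the lowest count of any of the 10 genes in any mouse was 10, so each was detected in all 58 mice. The 28 Abca1+/- libraries (median 18871446 counts) were deeper than the 30 Abca1+/+ libraries (median 8350021 counts), so depth and Abca1 copy number cannot be told apart. Abca1 itself was lower in Abca1+/- than in Abca1+/+ mice, at a mean log2 ratio of −0.42 (SE 0.09, adjusted p = 0.000816) in edgeR, where SE is the standard error. Within groups it was −0.45 (SE 0.08, adjusted p = 0.00999) in APOE3 sham, −0.71 (SE 0.18, adjusted p = 0.124) in APOE3 TBI, −0.36 (SE 0.09, adjusted p = 0.0785) in APOE4 sham and −0.18 (SE 0.25, adjusted p = 0.755) in APOE4 TBI mice (edgeR). The Abca1 level therefore checks the label only weakly in injured APOE4 mice, where the 95% interval was −0.70 to 0.35. In injured APOE3 mice the interval was −1.09 to −0.34, although the adjusted p was 0.124 in edgeR. Abca1 itself also rose after TBI in every genotype, by 1.55 to 1.95 on the log2 scale (edgeR). The 6 cortical and 6 hippocampal neuron markers checked were all detected, and 1 mouse, E4/Abca1+/- TBI replicate 8, had the lowest summed level of the hippocampal markers, 331 CPM against 382 to 529 CPM in sham mice. Results that rest on that mouse are given with and without it. The mice were separate animals, and in bulk tissue fewer cells of a type and less RNA per cell cannot be told apart.

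Promoter sequences are shown for the genes with the extreme changes after TBI, Tnc (raised) and Acan (lowered), and for Vcan and Hapln1, neighbors on chromosome 13 that were both higher after TBI. The 3′ ends of Vcan and Hapln1 face each other 43.7 kb apart, and their promoters lie at the far ends of the pair. Each run is the 250 bases before a start site annotated by RefSeq (GRCm38.p6), 5′ to 3′ on the gene's strand. RefSeq's table gave 9 of the 10 genes. Capitals mark the TATA box letters TATANAA, the core of a GC box (GGGCGG), the CCAAT box and the AP-1 core TGANTCA, searched on both strands, with overlapping matches joined. Among 32851 mouse promoter windows of the same length, 10.4% held the TATA box letters, 32.7% the GC box core, 33.8% the CCAAT box and 6.75% the AP-1 core.
Tnc, chr4:64046937-64047186, minus strand: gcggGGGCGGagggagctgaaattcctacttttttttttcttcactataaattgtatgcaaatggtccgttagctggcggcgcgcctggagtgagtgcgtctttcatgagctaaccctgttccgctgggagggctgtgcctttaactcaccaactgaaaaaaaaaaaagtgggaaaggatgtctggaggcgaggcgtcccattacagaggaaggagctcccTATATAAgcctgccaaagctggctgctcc
Acan, chr7:79052976-79053225, plus strand: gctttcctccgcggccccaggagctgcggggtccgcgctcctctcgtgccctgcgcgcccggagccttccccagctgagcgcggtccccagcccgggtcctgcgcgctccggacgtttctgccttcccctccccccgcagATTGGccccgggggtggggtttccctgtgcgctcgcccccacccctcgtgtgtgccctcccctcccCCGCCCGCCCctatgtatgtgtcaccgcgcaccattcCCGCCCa
Vcan, chr13:89742513-89742762, minus strand: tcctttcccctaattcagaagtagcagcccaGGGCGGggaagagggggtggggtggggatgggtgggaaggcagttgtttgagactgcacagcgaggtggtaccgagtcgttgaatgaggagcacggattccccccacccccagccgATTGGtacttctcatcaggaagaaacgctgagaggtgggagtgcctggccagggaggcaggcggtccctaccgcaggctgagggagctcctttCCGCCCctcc
Hapln1, chr13:89540386-89540635, plus strand: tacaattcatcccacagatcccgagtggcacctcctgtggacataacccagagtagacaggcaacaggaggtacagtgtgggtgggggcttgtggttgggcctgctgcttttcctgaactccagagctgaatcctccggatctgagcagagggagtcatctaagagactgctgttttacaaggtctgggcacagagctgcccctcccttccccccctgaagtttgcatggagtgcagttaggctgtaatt
The Tnc window shown held 1 TATA box match and 1 GC box core, and the window of the other Tnc start in RefSeq held no TATA box match and 1 GC box core. The Acan window had 74.4% G and C bases and held 3 GC box cores, 2 of them overlapping, and 1 CCAAT box. The Vcan window held 2 GC box cores and 1 CCAAT box, and none of the 4 motifs was found in the Hapln1 window. None of the promoter windows of the 9 genes held the AP-1 core. A match is a description of the letters and not evidence of binding.

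The 10 genes differed widely in abundance. Levels were compared in CPM (counts scaled to a common library size with edgeR's TMM factors) per kb of exon. In the 29 sham mice, Cspg5 ranged from 62.2 to 84.9 (median 74.3) and Bcan from 55.7 to 84.4 (median 70.1) CPM per kb, and Cspg5 was the higher gene in 21 of the 29. Ncan followed with a median of 30.2 CPM per kb, Ptprz1 with 23.9, Tnr with 9.34, Hapln1 with 6.47, Cspg4 with 2.59 and Vcan with 1.39. Each step of the order from Bcan down to Tnc held in all 29 sham mice. The place of Cspg5 depends on the exon length, taken from transcripts with a RefSeq accession (3871 bp for Cspg5 and 3141 bp for Bcan). Over all annotated transcripts the lengths were 10074 and 4064 bp, and with those Cspg5 would lie below Bcan. The lowest levels were those of Tnc, 0.597 to 1.38 (median 0.777), and Acan, 0.505 to 1.02 (median 0.683) CPM per kb, and Tnc was above Acan in 19 of 29 sham mice. After TBI the median of Tnc was 1.32 CPM per kb and that of Acan 0.456.

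**Figure D1:**
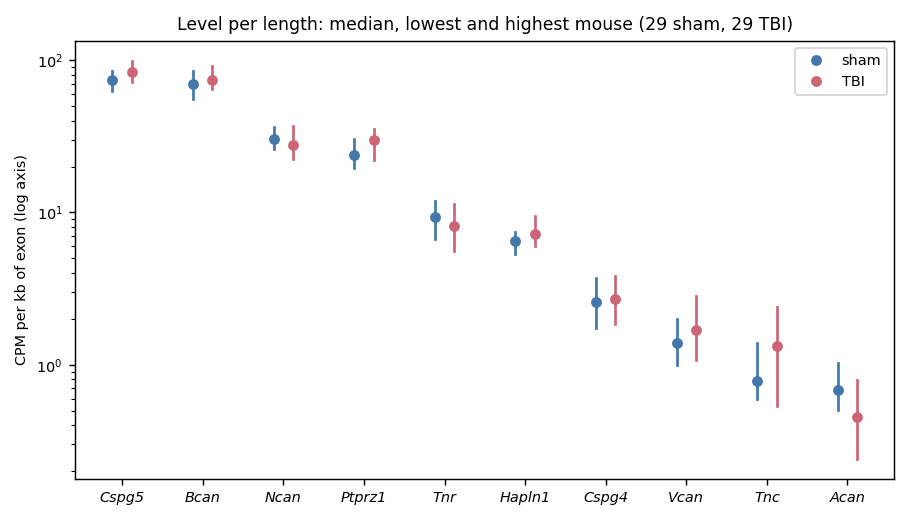
Level of each gene in CPM per kb of exon (log axis), with points at the median and lines from the lowest to the highest of 29 sham (blue) and 29 TBI (red) mice. Exon lengths are those of transcripts with a RefSeq accession. Sham medians run from 74.3 for Cspg5 to 0.683 for Acan, and the sham and TBI ranges of every gene overlap.

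TBI raised 6 of the 10 genes and lowered 3 when the 4 genotypes were averaged. Tnc, Vcan, Ptprz1, Hapln1, Cspg5 and Bcan were higher and Acan, Tnr and Ncan lower, and Cspg4, the proteoglycan NG2 of oligodendrocyte precursors and pericytes, did not pass the threshold (edgeR's quasi-likelihood test, Benjamini-Hochberg adjusted p under 0.05). Over all 15171 genes, 29% passed as higher and 24.3% as lower in that average. Within genotypes, 3 genes were higher and 1 lower in E3/Abca1+/+ mice, where 13.3% of all genes passed as higher and 9.49% as lower. In E3/Abca1+/- mice 1 was higher and 1 lower (13.7% and 10.1% of all genes), and in E4/Abca1+/+ mice also 1 was higher and 1 lower (9.24% and 4.5%). In E4/Abca1+/- mice 6 genes were higher and 3 lower, against 19.7% and 12.7% of all genes. Without E4/Abca1+/- TBI replicate 3 the last count fell from 9 to 5. Over the 10 genes the log2 fold change had a median of 0.14, 0.09, 0.16 and 0.18 in these 4 genotypes, in the same order, and the median of all genes was between 0.001 and 0.025. The genes named in this comparison moved in different directions, so these medians describe no common change.

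**Figure D2:**
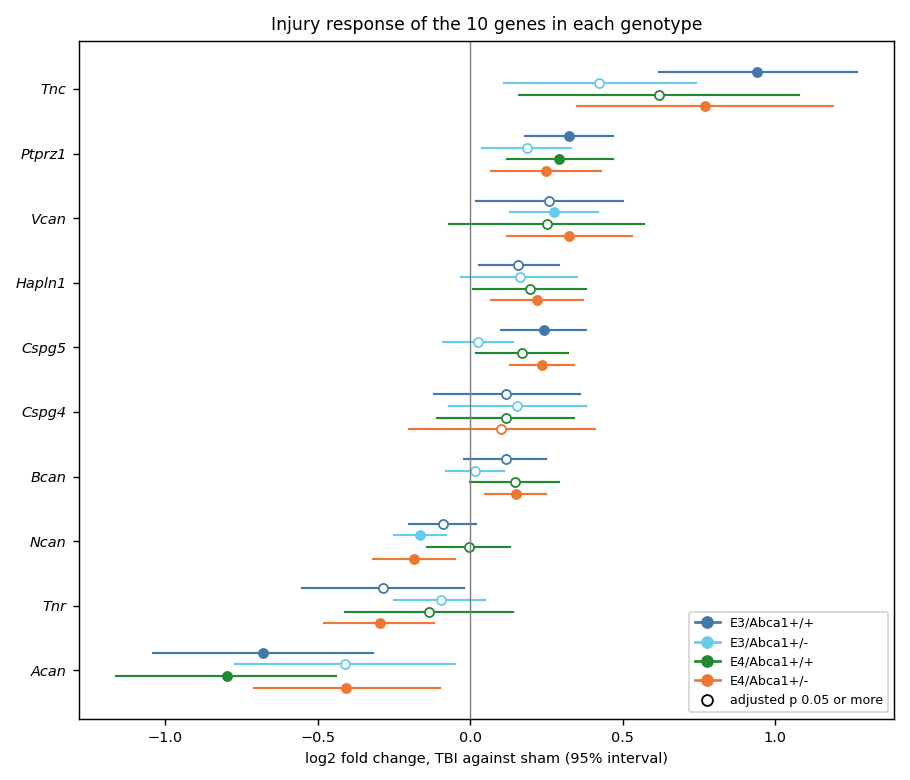
Log2 fold change of TBI against sham for each gene in each genotype (colors), with 95% intervals from edgeR's quasi-likelihood fit. Filled points have an adjusted p under 0.05 and open points do not. Tnc lies to the right of 0 and Acan to the left in all 4 genotypes, with Tnc between 0.42 and 0.94 and Acan between −0.80 and −0.41.

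Among the lecticans, aggrecan was the one that fell most. Acan (chr7:79053483-79115099, plus strand) encodes aggrecan, the lectican that defines mature nets around parvalbumin neurons. In E3/Abca1+/+ mice it ranged from 3.72 to 7.05 CPM (median 5.44, n = 8) in sham and from 1.91 to 5.07 CPM (median 3.29, n = 8) in TBI mice. In E4/Abca1+/+ mice sham values ranged from 3.98 to 7.47 CPM (median 5.64, n = 7) and TBI values from 2.45 to 3.90 CPM (median 3.24, n = 7). The ranges did not overlap in E4/Abca1+/+ mice, where all 7 injured mice lay below every sham mouse, and 7 of 8 injured E3/Abca1+/+ mice did so. The log2 fold change was −0.68 (SE 0.17, adjusted p = 0.00651) in E3/Abca1+/+ and −0.80 (SE 0.17, adjusted p = 0.00454) in E4/Abca1+/+ mice, both from edgeR. With 1 copy of Abca1, Acan ranged from 4.79 to 6.46 CPM (median 5.03, n = 7) in sham and from 2.46 to 5.84 CPM (median 3.86, n = 6) in TBI mice expressing APOE3. It ranged from 4.12 to 5.71 CPM (median 4.28, n = 7) in sham and from 1.77 to 4.57 CPM (median 3.45, n = 8) in TBI mice expressing APOE4. The 2 groups overlapped in both Abca1+/- genotypes, with 5 of 6 and 6 of 8 injured mice below every sham mouse. With edgeR the log2 change was −0.41 (SE 0.17, adjusted p = 0.0975) in E3/Abca1+/- mice, which missed the threshold, and −0.41 (SE 0.15, adjusted p = 0.0413) in E4/Abca1+/- mice. The E4/Abca1+/- call did not hold in 7 of the 15 fits that left out 1 mouse, TBI replicate 1, 3, 4 or 5 or sham replicate 3, 4 or 6 (adjusted p 0.0599 to 0.0906), nor with sex as a covariate (0.0536) or thinned libraries (0.156). In E4/Abca1+/+ mice it was lost when all libraries were thinned to the lowest total (adjusted p = 0.0722). Averaged over the genotypes Acan fell by 32.8%, a log2 fold change of −0.57 (SE 0.09, adjusted p = 6.76e-08) in edgeR's fit of all 58 mice.

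Ncan (chr8:70093085-70120873, minus strand) encodes neurocan, a soluble lectican that is abundant in the developing brain and made again after injury. It was lower after TBI in both Abca1+/- genotypes. Ncan of E3/Abca1+/- mice ranged from 207 to 234 CPM (median 222, n = 7) in sham and from 183 to 212 CPM (median 198, n = 6) in TBI mice, and 5 of 6 injured mice lay below every sham mouse. In E4/Abca1+/- mice it ranged from 188 to 220.2 CPM (median 217, n = 7) and from 160.5 to 231 CPM (median 179, n = 8), and 1 injured mouse, replicate 8, lay above all the others. Its log2 fold change in edgeR was −0.17 (SE 0.04, adjusted p = 0.00792) in E3/Abca1+/- and −0.18 (SE 0.06, adjusted p = 0.0333) in E4/Abca1+/- mice, where it was −0.24 without replicate 8. In E3/Abca1+/+ and E4/Abca1+/+ mice it was −0.09 (SE 0.05, adjusted p = 0.247) and −0.003 (SE 0.07, adjusted p = 0.989) by the same test. Averaged over the genotypes Ncan fell by 7.35% (edgeR adjusted p = 0.00108). The E4/Abca1+/- call did not hold in 8 of 15 fits without 1 mouse, TBI or sham replicate 3, 5, 6 or 7 (adjusted p 0.0523 to 0.066), and neither Abca1+/- call held after thinning (adjusted p = 0.057 and 0.073).

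Bcan (chr3:87987531-88000230, minus strand) encodes brevican, the most abundant lectican of the adult brain and a component of nets and of perisynaptic matrix. It was higher after TBI in E4/Abca1+/- mice, where it ranged from 175 to 215 CPM (median 208, n = 7) in sham and from 212 to 246 CPM (median 223, n = 8) in TBI mice. Of these injured mice, 7 of 8 lay above every sham mouse. The edgeR log2 fold change was 0.15 (SE 0.05, adjusted p = 0.0232), and without TBI replicate 2 or without sham replicate 2 the adjusted p was 0.093 and 0.0505. It was 0.12 (SE 0.07, adjusted p = 0.204) in E3/Abca1+/+, 0.02 (SE 0.05, adjusted p = 0.865) in E3/Abca1+/- and 0.15 (SE 0.07, adjusted p = 0.188) in E4/Abca1+/+ mice.

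Vcan (chr13:89655312-89742509, minus strand) encodes versican, made by oligodendrocyte precursors and by vascular and meningeal cells. It was higher after TBI in both Abca1+/- genotypes. Versican transcripts of E3/Abca1+/- mice ranged from 17.7 to 22.3 CPM (median 18.9, n = 7) in sham and from 19.5 to 25.1 CPM (median 24.0, n = 6) in TBI mice, and in E4/Abca1+/- mice from 16.7 to 26.6 CPM (median 18.4, n = 7) and from 20.1 to 27 CPM (median 25.1, n = 8). All 6 and all 8 injured mice of these genotypes lay above their sham median, although the ranges overlapped. By edgeR, Vcan changed on the log2 scale by 0.27 (SE 0.07, adjusted p = 0.00747) in E3/Abca1+/- and 0.32 (SE 0.10, adjusted p = 0.0176) in E4/Abca1+/- mice. The change was 0.26 (SE 0.11, adjusted p = 0.113) in E3/Abca1+/+ and 0.25 (SE 0.15, adjusted p = 0.315) in E4/Abca1+/+ mice, neither past the threshold. TBI replicate 6 of the E4/Abca1+/+ mice reached 37.7 CPM, and without it the log2 fold change was 0.10. The Vcan call of E3/Abca1+/- mice did not hold in a fit of all 58 mice (adjusted p = 0.103) or after thinning, where the log2 fold change was 0.11 (adjusted p = 0.595).

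The make-up of the lectican transcripts is given as a description, since it comes from the counts tested above. Of the summed CPM per kb of the 4 lecticans, Bcan was 68.3% ± 2.04 (SD, n = 29) in sham and 71.3% ± 2.39 in TBI mice, and Ncan was 29.7% ± 1.89 and 26.7% ± 2.36. Vcan made up 1.37% ± 0.206 in sham and 1.62% ± 0.394 in TBI mice, and Acan 0.693% ± 0.149 and 0.439% ± 0.118. The ratio of Vcan to Acan per kb had a median of 2.03 in sham mice (1.39 to 2.76) and of 3.55 in TBI mice (2.15 to 8.44). Injured mice thus overlapped with sham mice in this ratio, although the highest injured values were far above the sham range.

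Hapln1 (chr13:89539796-89611652, plus strand) encodes the link protein that fastens lecticans to hyaluronan. It was higher after TBI in E4/Abca1+/- mice, with 30.8 to 42.5 CPM (median 37.9, n = 7) in sham and 37.3 to 49.9 CPM (median 44.3, n = 8) in TBI mice. The ranges overlapped, and 4 of 8 injured mice lay above every sham mouse. The edgeR log2 fold change was 0.22 (SE 0.07, adjusted p = 0.0242), and the call did not hold without TBI replicate 3 (adjusted p = 0.0502) or sham replicate 4 (adjusted p = 0.0642). It was 0.16 (SE 0.06, adjusted p = 0.0769) in E3/Abca1+/+, 0.16 (SE 0.09, adjusted p = 0.212) in E3/Abca1+/- and 0.20 (SE 0.09, adjusted p = 0.169) in E4/Abca1+/+ mice by the same test. The E3/Abca1+/- value rested on TBI replicate 6, at 53.7 CPM, without which it was 0.06. Averaged over the genotypes Hapln1 was 13.6% higher after TBI (edgeR adjusted p = 0.000119).

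Of the membrane proteoglycans, Ptprz1 and Cspg5 were higher after TBI. Ptprz1 (chr6:22875502-23052916, plus strand) encodes the receptor tyrosine phosphatase zeta of astrocytes and oligodendrocyte precursors, whose secreted form is phosphacan. In E3/Abca1+/+ mice it ranged from 209 to 279 CPM (median 247, n = 8) in sham and from 257 to 355 CPM (median 308, n = 8) in TBI mice, and 6 of 8 injured mice lay above every sham mouse. In E4/Abca1+/+ mice it ranged from 197 to 285 CPM (median 256, n = 7) and from 252 to 343 CPM (median 319, n = 7), and 4 of 7 injured mice lay above every sham mouse. EdgeR gave Ptprz1 a log2 fold change of 0.32 (SE 0.07, adjusted p = 0.00186) in E3/Abca1+/+, 0.29 (SE 0.08, adjusted p = 0.026) in E4/Abca1+/+ and 0.25 (SE 0.08, adjusted p = 0.0318) in E4/Abca1+/- mice. In E3/Abca1+/- mice it was 0.19 (SE 0.07, adjusted p = 0.056), with all 6 injured mice above the sham median, and it passed with DESeq2 (adjusted p = 0.0417) or with sex as a covariate (adjusted p = 0.0412). The call in E4/Abca1+/+ mice did not hold in 6 of 14 fits without 1 mouse, sham replicate 3 or 7 or TBI replicate 3, 5, 6 or 7 (adjusted p 0.05 to 0.0551), and that in E4/Abca1+/- mice in 10 of 15, those without TBI replicate 1 to 5 or sham replicate 1, 2, 4, 6 or 7 (adjusted p 0.0503 to 0.0895).

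Cspg5 (chr9:110243783-110262576, plus strand) encodes neuroglycan C, a brain-specific membrane proteoglycan of neurons and astrocytes. It ranged from 241 to 316 CPM (median 275, n = 8) in sham and from 277 to 384 CPM (median 337, n = 8) in TBI mice of E3/Abca1+/+ genotype, and from 247 to 318 CPM (median 279, n = 7) and 304 to 359 CPM (median 325, n = 8) in E4/Abca1+/- mice. All 8 injured mice of each of these genotypes lay above the sham median, and 5 of 8 lay above every sham mouse. Cspg5 rose on the log2 scale by 0.24 (SE 0.07, adjusted p = 0.0133) in E3/Abca1+/+ and 0.24 (SE 0.05, adjusted p = 0.00172) in E4/Abca1+/- mice (edgeR), and both calls held without any 1 mouse. In E4/Abca1+/+ mice it was 0.17 (SE 0.07, adjusted p = 0.123), with 7 of 7 injured mice above the sham median, and it passed with sex as a covariate (edgeR adjusted p = 0.0229). In E3/Abca1+/- mice it was 0.03 (SE 0.05, adjusted p = 0.789), with a 95% interval of −0.09 to 0.14, and 3 of 6 injured mice lay below every sham mouse and 2 above every one.

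Cspg4 (chr9:56865033-56899870, plus strand) passed in no genotype. Its group medians lay between 19.0 and 21.6 CPM in sham and between 20.3 and 25.0 CPM in TBI mice. The edgeR log2 fold changes were between 0.10 and 0.16, and the 95% interval in the average of all mice was −0.01 to 0.25 (adjusted p = 0.107).

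The tenascins moved in opposite directions. Tnc (chr4:63959785-64047015, minus strand) encodes tenascin-C, a matrix glycoprotein that is scarce in most of the adult brain and induced in reactive astrocytes. In E3/Abca1+/+ mice it ranged from 4.39 to 6.42 CPM (median 5.20, n = 8) in sham and from 6.55 to 16.9 CPM (median 9.60, n = 8) in TBI mice, and the ranges did not overlap. In E4/Abca1+/- mice it ranged from 4.24 to 5.93 CPM (median 5.49, n = 7) and from 3.82 to 12.6 CPM (median 9.82, n = 8), with 7 of 8 injured mice above every sham mouse and 1, replicate 6, below all of them. Tnc rose on the log2 scale by 0.94 (SE 0.16, adjusted p = 0.000136) in E3/Abca1+/+ and 0.77 (SE 0.20, adjusted p = 0.00637) in E4/Abca1+/- mice by edgeR. Tnc of E3/Abca1+/- mice ranged from 5.06 to 9.79 CPM (median 6.63, n = 7) and from 8.47 to 10.7 CPM (median 9.15, n = 6), and in E4/Abca1+/+ mice from 4.49 to 7.97 CPM (median 5.71, n = 7) and from 5.13 to 15.8 CPM (median 7.94, n = 7). All 6 injured E3/Abca1+/- mice and 6 of 7 injured E4/Abca1+/+ mice lay above the sham median. The changes of 0.42 (SE 0.15, adjusted p = 0.0508) and 0.62 (SE 0.22, adjusted p = 0.0673) just missed the threshold in edgeR, and both passed with DESeq2's Wald test (adjusted p = 0.0298 and 0.0394). Without E3/Abca1+/- sham replicate 1 or 2 the E3/Abca1+/- change was 0.53 and 0.51 (edgeR adjusted p = 0.0107 and 0.0186). Over all 58 mice Tnc was 61.1% higher after TBI (log2 fold change 0.69 (SE 0.10, adjusted p = 2.87e-08), edgeR).

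Tnr (chr1:159523769-159931729, plus strand) encodes tenascin-R, which cross-links lecticans in nets and is made by oligodendrocytes and some interneurons. It was lower after TBI in E4/Abca1+/- mice, where sham values ranged from 92.0 to 131 CPM (median 121, n = 7) and TBI values from 73.1 to 106 CPM (median 96.5, n = 8). All 8 injured mice lay below the sham median and 2 below every sham mouse. The edgeR log2 fold change was −0.30 (SE 0.09, adjusted p = 0.0129), and it held without any 1 mouse. It was −0.29 (SE 0.13, adjusted p = 0.113) in E3/Abca1+/+, −0.10 (SE 0.07, adjusted p = 0.375) in E3/Abca1+/- and −0.14 (SE 0.13, adjusted p = 0.563) in E4/Abca1+/+ mice. The ratio of Tnr to Tnc per kb had a median of 12.0 in sham mice (6.48 to 17.2) and of 6.39 in TBI mice (2.47 to 12.9), and the 2 sets overlapped.

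**Figure D3:**
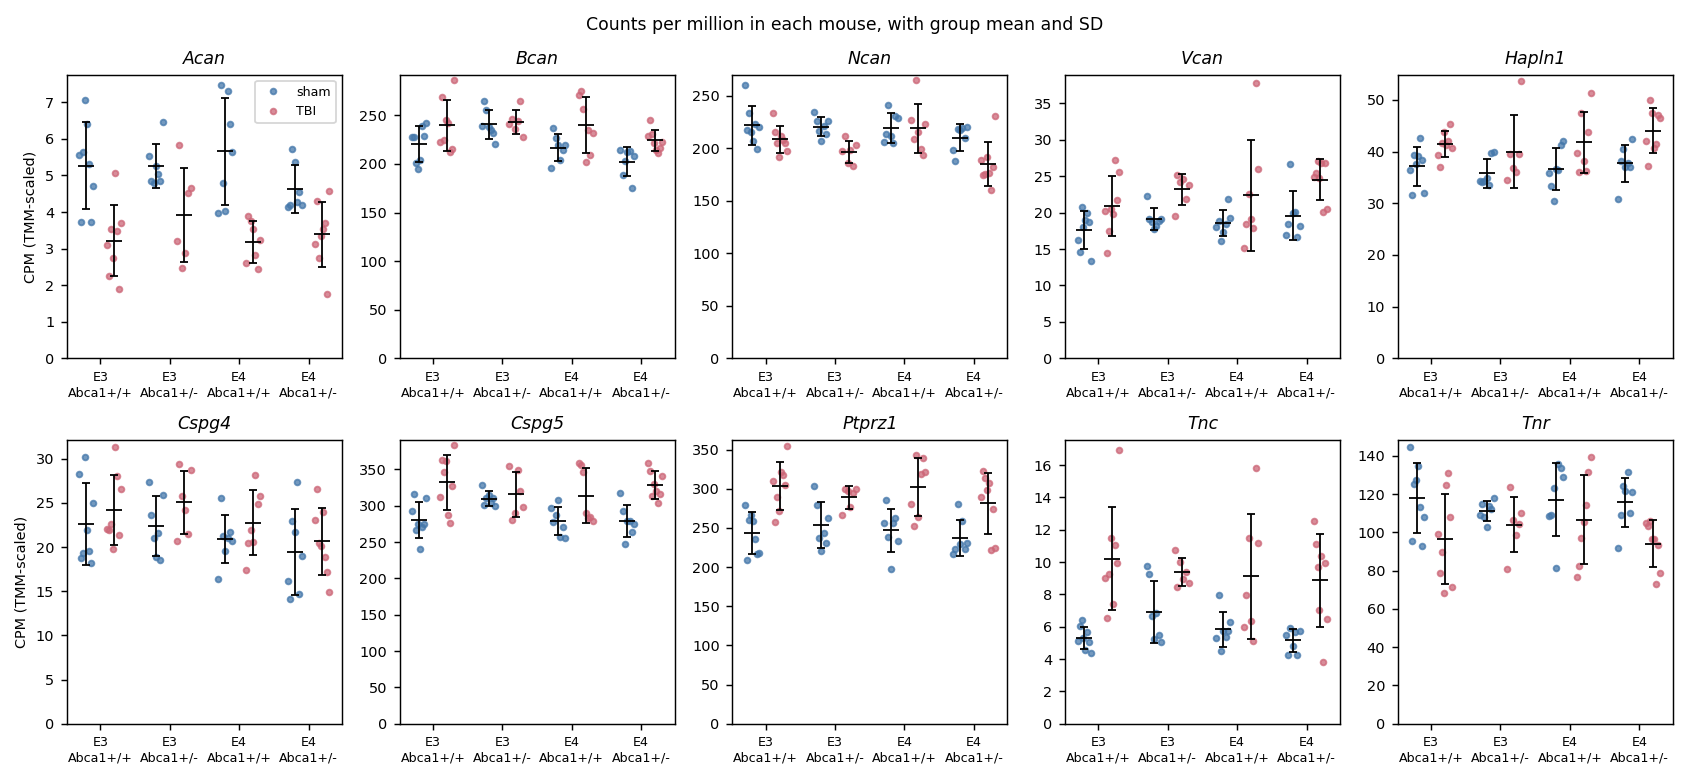
CPM (TMM-scaled) of each gene in every mouse, by genotype, with sham in blue and TBI in red. Horizontal bars are group means and error bars SD (n = 6 to 8 mice). Sham and TBI values of Tnc do not overlap in E3/Abca1+/+ mice, nor those of Acan in E4/Abca1+/+ mice.

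Whether the injury response of these genes depended on genotype was tested with interaction terms in edgeR over the 4 groups concerned. The estimated response of Tnc was smaller in E3/Abca1+/- than in E3/Abca1+/+ mice, with a log2 difference of −0.52 (95% interval −0.98 to −0.06, unadjusted p = 0.0272, adjusted p = 1.0). Mean Tnc in sham and TBI mice was 6.9 and 9.4 CPM with E3/Abca1+/- and 5.3 and 10.2 CPM with E3/Abca1+/+ genotype. Among E3/Abca1+/- sham mice, replicates 1 and 2 were highest, at 9.8 and 9.3 CPM. The response of Cspg5 differed by −0.22 in the same comparison (edgeR adjusted p = 1.0). That of Cspg5 was larger in E4/Abca1+/- than in E3/Abca1+/- mice by 0.21 (95% interval 0.06 to 0.37, edgeR adjusted p = 0.734). None of the 10 genes passed the adjusted threshold in any of the 4 interactions, nor did any of the 15171 genes (0.0%), and DESeq2 called none of the 10. At an unadjusted p under 0.05 the count was 2 of 10 for Abca1 copies by injury in APOE3 mice (2.16% of all genes), 0 in APOE4 mice (4.81%), 0 for isoform by injury in Abca1+/+ mice (2.22%) and 1 in Abca1+/- mice (6.36%). The different numbers of genes that passed in each genotype are therefore not shown to be different responses. The depth of the libraries also differed between the Abca1 genotypes.

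Abca1 copy number was compared within each isoform and injury status. None of the 10 genes passed in any of the 4 comparisons with edgeR, where 2.27% of all genes passed in APOE3 sham, 0.0923% in APOE3 TBI, 0.87% in APOE4 sham and 1.36% in APOE4 TBI mice. At an unadjusted p under 0.05 the counts were 3 (16.4% of all genes), 0 (9.18%), 0 (15.9%) and 1 (18.3%), and DESeq2 called 0, 0, 0 and 1. The 3 in APOE3 sham mice were Tnc, Cspg5 and Bcan, all higher in Abca1+/- mice. Among sham mice Tnc was 6.92 ± 1.92 CPM (SD, n = 7) with E3/Abca1+/- and 5.31 ± 0.698 CPM (SD, n = 8) with E3/Abca1+/+ genotype, 0.37 (SE 0.15, adjusted p = 0.215) on the log2 scale by edgeR. Its log2 values in APOE3 TBI, APOE4 sham and APOE4 TBI mice were −0.15, −0.20 and −0.05 (edgeR), opposite in sign, and none passed. Tnc lies 10.8 Mb from Abca1 on chromosome 4. The gene called by DESeq2 in injured APOE4 mice was Ncan, at 185 ± 20.8 CPM (SD, n = 8) with E4/Abca1+/- and 219 ± 23.6 CPM (SD, n = 7) with E4/Abca1+/+ genotype, with an edgeR log2 fold change of −0.25 (SE 0.08, adjusted p = 0.106). It also passed in edgeR without E4/Abca1+/- TBI replicate 8. Averaged over isoform and injury, Ncan alone passed, lower in Abca1+/- mice, at −0.10 (SE 0.03, adjusted p = 0.0108) on the log2 scale by edgeR, where 17.9% of all genes passed. After thinning to equal depth the log2 fold change was −0.09 (adjusted p = 0.0541).

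APOE isoform was compared in the same groups, which these comparisons therefore share with those of Abca1. In Abca1+/+ mice none of the 10 genes passed in sham (0.356% of all genes) or TBI mice (0.211%) with edgeR, none had an unadjusted p under 0.05 (8.81% and 7.18% of all genes), and DESeq2 called none. In Abca1+/- sham mice Bcan was lower with APOE4, 202 ± 15.0 CPM (SD, n = 7) against 241 ± 15.0 CPM (SD, n = 7), and it was the only one of the 10 genes to pass, as did 5.11% of all genes. All 7 APOE4 values, at most 215 CPM, lay below all 7 APOE3 values, at least 220.4 CPM. The edgeR log2 fold change was −0.25 (SE 0.05, adjusted p = 0.0106), and the call held without any 1 mouse. Tnc and Cspg5 were also lower with APOE4 in these mice, which made 3 of 10 genes at an unadjusted p under 0.05 (23.0% of all genes), at log2 values of −0.44 (edgeR adjusted p = 0.0963) and −0.15 (edgeR adjusted p = 0.0667). In Abca1+/- TBI mice none passed with edgeR (2.74% of all genes), 2 had an unadjusted p under 0.05 (19.1% of all genes), and DESeq2 called 1, Bcan. These 2 genes were Bcan, at −0.12 (SE 0.04, adjusted p = 0.145), and Cspg4, at −0.27 (SE 0.12, adjusted p = 0.232), both from edgeR. Averaged over Abca1 copies and injury, Bcan was 6.67% lower with APOE4 (log2 fold change −0.10 (SE 0.03, adjusted p = 0.0189), edgeR) and 15.0% of all genes passed. That average came from the Abca1+/- mice, since in Abca1+/+ mice Bcan was at −0.03 in sham and 0.001 in TBI mice.

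Males and females were in every group, and sex was tested in a fit of all 58 mice with group as a term. Hapln1 was 12.7% higher in females (log2 fold change 0.17 (SE 0.03, adjusted p = 0.000985)) and Cspg5 7.02% lower (−0.11 (SE 0.03, adjusted p = 0.0177)) in edgeR's test, in which 10.1% of all genes passed. Vcan was 0.16 (SE 0.06, adjusted p = 0.0504) and Tnr 0.15 (SE 0.06, adjusted p = 0.0704) in the same fit. Vcan passed with the Wald test or the size factors of DESeq2, a minimum of 10 counts and thinning, and both passed without E4/Abca1+/- TBI replicate 8. For the interaction of sex and injury none of the 10 genes passed with edgeR, nor did any other gene (0.0%). At an unadjusted p under 0.05 the count was 0 of 10 and 7.47% of all genes, and DESeq2 called none.

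The genes also varied together among mice of the same group. Log2(CPM + 1) values were taken as deviations from each group's mean, and Pearson's r over the 58 mice is given as a description, since library depth and dissection vary between the same mice. Tnc varied with Vcan (r = 0.67) and Ptprz1 (r = 0.56), and Ptprz1 varied with Cspg4 (r = 0.66), Vcan (r = 0.63) and Tnr (r = 0.62). Bcan varied with Cspg5 (r = 0.56), and Cspg5 ran opposite to Tnr (r = −0.72) and Vcan (r = −0.46). Acan and Tnc, the genes that changed most after TBI, were nearly unrelated (r = −0.06). Vcan and its neighbor Hapln1 had r = 0.47.

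**Figure D4:**
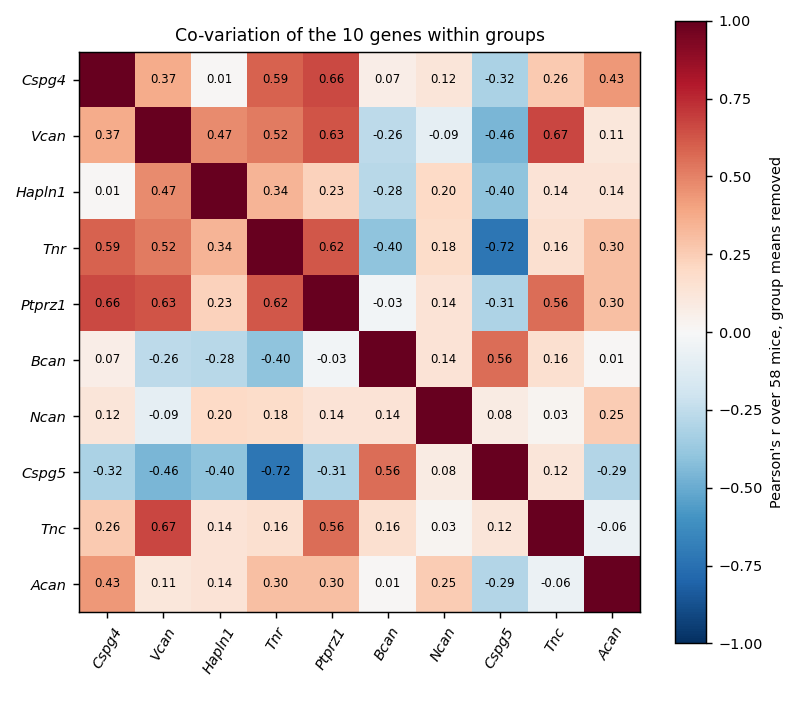
Pearson's r between each pair of the 10 genes over 58 mice, from log2(CPM + 1) after group means were subtracted, from blue (negative) to red (positive). The pairs among Cspg4, Vcan, Tnr and Ptprz1 are red, at 0.37 to 0.66. Hapln1, placed between Vcan and Tnr, has 0.01 with Cspg4 and 0.23 with Ptprz1. Tnr and Cspg5 are the bluest pair at −0.72.

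Most alike to Tnr over the 58 mice were Cacna1c (r = 0.912), Grin2a (r = 0.887) and Trim2 (r = 0.884), a calcium channel subunit, a glutamate receptor subunit and a ubiquitin ligase. Cspg5 was most alike to Zdhhc22 (r = 0.832), Pth1r (r = 0.811) and Gm5424 (r = 0.796). Ptprz1 was most alike to Nwd1 (r = 0.821), Fat1 (r = 0.789) and Prex2 (r = 0.773), and Tnc to Notch2 (r = 0.758), Myo10 (r = 0.738) and the perlecan gene Hspg2 (r = 0.726). Bcan was most alike to Cntfr (r = 0.744), Ntsr2 (r = 0.721) and Cbx7 (r = 0.708), and Cspg4 to Tenm4 (r = 0.74), Polr2a (r = 0.734) and Cad (r = 0.692). Ncan was most alike to Adgrl1 (r = 0.735), Lmtk2 (r = 0.714) and Atp2b2 (r = 0.679), and Vcan to Plagl1 (r = 0.725), Cfap54 (r = 0.721) and Akap13 (r = 0.71). For Hapln1 they were Gpm6b (r = 0.71), Kctd12 (r = 0.656) and Pbdc1 (r = 0.632). The values were lowest for Acan, with Pitpnc1 (r = 0.552), Map1a (r = 0.546) and Epb41l1 (r = 0.542). Acan also had the lowest median level per kb, and how far its low counts limit these values was not tested.

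Genes that make, modify and degrade the same matrix were counted from lists written with earlier results of these data known. In the order E3/Abca1+/+, E3/Abca1+/-, E4/Abca1+/+ and E4/Abca1+/-, which is kept here, TBI raised 6, 5, 3 and 6 of 8 genes for breakdown of chondroitin chains (edgeR) and lowered none. Over all genes 13.3%, 13.7%, 9.24% and 19.7% passed as higher and 9.49%, 10.1%, 4.5% and 12.7% as lower. These shares stand beside every count of a list or of markers, and a count near them is not a result about its list. The lysosomal enzyme genes Hexa, with log2 fold changes of 0.76 to 1.11 over the genotypes, and Gusb (beta-glucuronidase), 1.06 to 1.42, passed in all 4. The 12 genes for synthesis of the chain gave 0 higher genes in each genotype and 1, 3, 0 and 1 lower ones, among them Xylt1 (−0.27 to −0.01), Chpf (−0.21 to −0.03) and Fam20b (−0.18 to −0.05). The 13 genes of sulfation and epimerization gave 2, 3, 1 and 5 higher and 1, 0, 0 and 1 lower ones, with Chst14 (0.35 to 1.09), Dse (0.31 to 0.45) and Chst7 (0.11 to 0.58) as the largest changes.

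Of 15 genes of other link proteins and hyaluronan handling, 3, 2, 3 and 4 were higher and 1, 1, 2 and 1 lower after TBI. The hyaluronan receptor Cd44 rose from a mean of 7.26 to 31.7 CPM and changed by 1.84 to 2.49 on the log2 scale, the scavenger receptor Stab1 by 1.17 to 1.42 and the hyaluronan synthase Has2 by 0.46 to 1.59, which passed in 2 genotypes. Has2 was scarce, at a mean of 0.396 CPM in sham and 0.821 CPM in TBI mice, and 3 counts in the shallowest library equal 0.68 CPM. Hapln4, the link protein of brevican in nets, passed as lower in all 4 genotypes (−0.48 to −0.38), and is named outside the rule after its values were seen. Of 7 lectican-cleaving proteases 1, 2, 0 and 1 were higher and 0, 0, 0 and 1 lower, with Adamts9 at 0.33 to 0.52 and Adamts1 at 0.31 to 0.59, each passing in 2 genotypes, and Adamts8 at −0.26 to 0.02, passing in 1.

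Of 9 receptors for chondroitin proteoglycans or their partners, 1, 1, 1 and 2 were higher and 2, 3, 1 and 1 lower. Lingo1, a co-receptor of the Nogo receptor, fell in all 4 genotypes (−0.40 to −0.24), the Nogo receptor Rtn4r was at −0.38 to −0.21 and passed in 2, and Ngfr was at 0.11 to 0.52 and passed in 1. Of 7 other chondroitin or dermatan proteoglycans, 3, 3, 3 and 2 were higher and 0, 1, 0 and 2 lower, with serglycin, Srgn (0.61 to 1.23), and biglycan, Bgn (0.69 to 0.91), passing in all 4 and decorin, Dcn (0.48 to 0.65), in 3. Neither of the other 2 tenascins passed in any genotype. Of 7 net-associated ligands and secreted factors, 1, 2, 1 and 1 were higher and 2, 2, 1 and 1 lower. The pentraxin Nptx2, a synaptic protein that binds nets, fell in all 4 genotypes (−0.79 to −0.50), the net-bound guidance factor Sema3a was at −0.56 to −0.29 and passed in 2, and the galectin Lgals1 rose in all 4 (0.72 to 1.10).

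Markers of the cell types that make this matrix moved with the same comparisons. Of all genes, 13.3%, 13.7%, 9.24% and 19.7% passed as higher and 9.49%, 10.1%, 4.5% and 12.7% as lower. The summed CPM of 9 astrocyte markers ranged from 5540 to 7080 in sham and from 7100 to 11400 in TBI mice, and 7, 7, 8 and 8 of the 9 were higher by edgeR. Of 6 parvalbumin neuron markers 4, 5, 2 and 4 were lower after TBI, with a summed level of 386 to 513 CPM in sham and 268 to 457 CPM in TBI mice. Of 6 neuron markers 4, 5, 3 and 5 were lower (7610 to 8710 CPM in sham and 5500 to 7770 CPM in TBI mice), and of 6 cortical neuron markers 3, 4, 2 and 3 (556 to 731 and 365 to 731 CPM). No gene of these 4 marker lists passed in the other direction. Of 8 oligodendrocyte precursor markers 0, 2, 1 and 4 were higher, with 234 to 315 CPM in sham and 261 to 384 CPM in TBI mice, and of 5 fibroblast markers 5, 3, 4 and 1 (71.7 to 153 and 43.3 to 340 CPM). All 6 microglia markers were higher in each genotype (241 to 384 CPM in sham and 452 to 1050 CPM in TBI mice). Of 4 markers of infiltrating myeloid cells, 4, 4, 3 and 4 were higher, and of 3 markers of dividing cells 3, 3, 0 and 3. Both sums were low. The myeloid sum ranged from 0 to 1.87 CPM in sham and from 2.12 to 22.8 CPM in TBI mice. That of dividing cells ranged from 1.84 to 5.79 CPM and from 3.61 to 16.4 CPM. No marker in any list was at 0 in every mouse.

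Counts of higher markers in the remaining lists were 0, 0, 0 and 4 of 6 for oligodendrocytes, 1, 1, 0 and 3 of 6 for pericytes and vascular muscle, and 0, 1, 0 and 2 of 4 for endothelium, with none lower. Of 6 hippocampal markers 0, 0, 1 and 0 were higher and 1, 0, 1 and 1 lower. Of 6 markers of tissue next to the dissected region (thalamus, striatum and choroid plexus) 2, 2, 1 and 2 were higher, with summed levels of 15.9 to 1270 CPM in sham and 25.4 to 1970 CPM in TBI mice. Within groups, over the 58 mice, the astrocyte sum varied with Ptprz1 (r = 0.65), Tnc (r = 0.60) and Vcan (r = 0.47). The precursor sum varied with Vcan (r = 0.60), Ptprz1 (r = 0.55), Cspg4 (r = 0.54), Tnr (r = 0.52) and Tnc (r = 0.47), and ran opposite to Cspg5 (r = −0.30). The parvalbumin neuron sum went both ways, with Bcan (r = 0.42), Acan (r = 0.40), Ncan (r = 0.40) and Cspg5 (r = 0.37), and opposite to Vcan (r = −0.48), Hapln1 (r = −0.43) and Tnr (r = −0.29). That sum mostly follows Kcnc1 and Kcnc2, at sham means of 210 and 149 CPM, against 39.1 CPM for Pvalb and 34.7 CPM for Syt2. The astrocyte sum likewise mostly follows Slc1a2, at a sham mean of 3780 CPM. The neuron sum ran opposite to Tnc (r = −0.66), Ptprz1 (r = −0.61) and Vcan (r = −0.55), and varied with Ncan (r = 0.33). Other lists gave values of similar size, so these links are not particular to 1 cell type. Ptprz1 had r of 0.51, 0.50 and 0.47 with the pericyte, endothelium and fibroblast sums, and Tnc 0.48, 0.45 and 0.45. Vcan had 0.57 with the dividing cell sum and Bcan 0.42 with endothelium. Ncan and Cspg5 had 0.50 and 0.44 with the cortical neuron sum. These are descriptions across mice that share dissection and depth, and the part of such cell changes in the injury results was not tested.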

How the data were processed

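RNA was sequenced from cortex and hippocampus of 58 mice. The authors deposited 1 table of whole-number read counts per gene, not normalized, made with Subread/featureCounts 1.5.0 on mm10 as the submitters' processing notes state. Whether counting used strand is not given in the sources used here, so antisense reads cannot be told apart. After 2 blank lines were removed, 15171 genes remained, 23 symbols turned into dates were restored from gene identifiers, and 0 columns of mice were left out. Replicates were numbered in accession order. Among 183 pairs of mice within groups 0 had identical counts.

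The 10 genes, the gene lists, the markers and the tests were chosen with earlier results of these data known. TMM factors (0.954 to 1.038) were computed over all mice, and filterByExpr removed 0 genes. Groups were compared with edgeR 4.0.16 (R 4.3.3, limma 3.58.1), glmQLFit and glmQLFTest, with Benjamini-Hochberg adjustment over 15171 genes at 0.05. Pairs of groups were fitted alone, interactions over their 4 groups, and averages and sex over all 58 mice, 21 comparisons in all. Standard errors were taken from the fold change and the F statistic, and intervals are at 95%. The genes named are all 10, up to 3 genes of each pathway list (not of marker lists) with the largest mean change among those past the threshold in at least 1 genotype, and the 3 genes most alike to each of the 10. A gene that this rule names is not reported here. Exon lengths and locations came from GENCODE mouse release M21 (GRCm38), with exons of transcripts that have a RefSeq accession merged. RefSeq (GRCm38.p6) gave promoters and matched 14999 genes by identifier. Alternatives were DESeq2 1.42.0 (size factors, and Wald test), no filter (the same fit, since 0 genes were removed), a minimum of 10 counts in every mouse, sex as a covariate, 1 fit over all 58 mice, thinning to 4421308 counts, and each mouse left out in turn. Fits without E4/Abca1+/- TBI replicate 8, and without each mouse for the isoform in Abca1+/- sham mice, were chosen after seeing the data. In simulated data for TBI in E3/Abca1+/+ mice, run on 15171 genes, edgeR recovered 78.8% of genes changed by 0.5 on the log2 scale, 97.0% of those changed by 1 and 100% of those changed by 2, with 11 false calls among 195. The changed genes had a mean above 2 CPM. Changes below 0.5, the size of most changes in the 10 genes, were not simulated, so their recovery is not known. Figures used Python 3.11.15 and matplotlib 3.10.9.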

Additional observations from a re-analysis of the deposited data

Results flagged for a closer look

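In each of the 80 sets made by 1 of the 10 genes in 1 group, the highest and the lowest mouse were compared with the rest by Dixon's test at the 95% level, and 4 sets had a mouse that stood apart. Chance gives about 1 in 20. Ncan was 231 CPM in E4/Abca1+/- TBI replicate 8, where the other 7 mice ranged from 160.5 to 191 CPM, and this mouse also had the lowest summed hippocampal markers, 331 CPM. Without it Ncan in E4/Abca1+/- mice fell further after TBI, to a log2 fold change of −0.24 in place of −0.18 (adjusted p = 0.000938 and 0.0333 in edgeR). Vcan was 22.3 CPM in E3/Abca1+/- sham replicate 1 (17.7 to 19.1 CPM in the other 6) and 26.6 CPM in E4/Abca1+/- sham replicate 3 (16.7 to 20.1 CPM in the other 6). Hapln1 was 53.7 CPM in E3/Abca1+/- TBI replicate 6, where the other 5 mice ranged from 34.5 to 39.5 CPM. The call of Vcan in both Abca1+/- genotypes held without these sham mice. A cause of these values was not tested.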

How the results depend on the processing

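The injury counts of E3/Abca1+/- and E4/Abca1+/+ mice moved by more than 1.5 times under several alternatives. That of E4/Abca1+/- mice did so only without TBI replicate 3, and that of E3/Abca1+/+ mice in no fit. In E3/Abca1+/- mice, 2 of the 10 genes passed, against 4 with DESeq2's Wald test or with sex as a covariate, 1 in a fit of all 58 mice and 1 (Tnc, with none of the 2 shared) after thinning to the lowest total. Leaving out 1 mouse gave 2 to 4 genes there, with 4 without sham replicate 1 or 2. In E4/Abca1+/+ mice 2 genes passed, 1 after thinning, and 1 to 3 without 1 mouse, with 1 without sham replicate 3 or 7 or TBI replicate 3, 6 or 7. In E4/Abca1+/- mice 9 passed, and 5 to 9 without 1 mouse. In E3/Abca1+/+ mice 4 passed, and 4 to 5 without 1 mouse. For Abca1 copies in injured APOE4 mice 0 passed, against 1 (Ncan) with DESeq2's Wald test, in a fit of all 58 mice or without E4/Abca1+/- TBI replicate 8. For the isoform in Abca1+/- mice, 1 passed in sham mice against 2 with DESeq2's Wald test, and 1 to 2 without 1 mouse (2 without E4/Abca1+/- sham replicate 1), and 0 passed in TBI mice against 1 with DESeq2's Wald test. After thinning, the average Abca1 effect gave 0 in place of 1 and the average isoform effect 2 in place of 1. For sex 2 passed, and 4 without E4/Abca1+/- TBI replicate 8. The average injury effect kept the same 9 genes under each of the 6 alternatives that could change it, which leaves out the fit with no filter, since the filter removed 0 genes.

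Directions turned only for changes near 0. In E3/Abca1+/- mice Bcan was −0.001 after thinning and −0.013 to 0.039 without 1 mouse (−0.01 without TBI replicate 5 and −0.013 without sham replicate 7). Cspg5 was −0.01 to 0.058 without 1 mouse (−0.01 and −0.005 without TBI replicate 1 and 4). In E4/Abca1+/+ mice Ncan was 0.003 with a minimum of 10 counts, and −0.055 to 0.022 without 1 mouse (above 0 in 6 fits, at 0.004, 0.018, 0.019, 0.01, 0.004 and 0.022). The causes were not tested. Thinned libraries tested fewer genes, 14047, and hold less precision for Acan and Tnc, at 4.63 to 6.92 CPM on average in the sham groups. No paired analysis was possible because the labels give only animal numbers, and replicate numbers in accession order pair no mice.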
